A study of Mus musculus with 12 samples.

Results

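De novo fatty acid synthesis was followed in mouse liver through 10 genes: the transcription factors Srebf1 and Mlxipl, the enzymes Acly, Me1, Acaca, Acacb, Fasn, Elovl6 and Scd1, and the lipogenic protein Thrsp. They were chosen by name for their known roles in the pathway, with earlier results of these data known. All 10 were found among the 22947 genes of the table. All of them averaged 0.5 FPKM or more across the 12 livers, as did the 12001 genes that were tested. FPKM is a number of sequenced fragments scaled to transcript length and to library size, and a gene's level here is the sum over its transcripts.

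The livers came from male C57BL/6J mice that were given their diets from 5 weeks of age for 16 weeks, 3 livers in each of 4 groups. The ND group ate a normal diet and the HFD group a high-fat diet. The CLE group ate the same high-fat diet with 1.5% of an extract of Chrysanthemum morifolium leaves, and the LU group ate it with 0.003% luteolin, a flavone of that plant, so that ND was the only group without the fat-rich diet. All mice were wild type, and by the study's methods all had fasted for 12 h when the tissues were taken. The livers were picked as representative of larger groups. Each is named below by its group and the number in its label, whose meaning the labels do not give. They are ND 2, 3 and 4, HFD 12, 15 and 18, CLE 2, 4 and 11, and LU 2, 3 and 8. The CLE livers are titled CLL and described as CLE in their labels.

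The pathway turns surplus carbohydrate into fat. Citrate leaves the mitochondria and is split by ATP citrate lyase (Acly) into acetyl-CoA, the acetyl-CoA carboxylases (Acaca and Acacb) convert that to malonyl-CoA, and fatty acid synthase (Fasn) joins these units into palmitate with NADPH, part of which comes from malic enzyme (Me1). Elovl6 lengthens palmitate and Scd1 puts a double bond into the product. In liver the genes are switched on after a carbohydrate meal, by insulin through SREBP-1c, a product of Srebf1, and by glucose metabolites through ChREBP, the product of Mlxipl. Malonyl-CoA also blocks the entry of fatty acids into mitochondria, and the carboxylase encoded by Acacb sits at the mitochondrial surface where it serves this control.

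The gene of Srebf1 lies at chr11:60199089-60222581 (minus strand) and that of Acacb at chr5:114146535-114250761 (plus strand), with Elovl6 at chr3:129532355-129638495, Thrsp at chr7:97412938-97417730 and Scd1 at chr19:44394455-44407879 (GENCODE M21, GRCm38). Srebf1 has 2 groups of start sites, an upstream one that gives SREBP-1a and an internal one that gives SREBP-1c, the main form of liver. Of the RefSeq promoters, 13 matched 9 of the members, Scd1 being the member without an entry. The sequences below are the 250 bases before the upstream and the internal Srebf1 start, both on the minus strand of chromosome 11, and before the annotated downstream start of Acacb, on the plus strand of chromosome 5 (RefSeq, GRCm38.p6), shown because the results turn on these genes. Capitals mark a match, on either strand, to the CCAAT box.
Srebf1 upstream start, chr11:60220628-60220877: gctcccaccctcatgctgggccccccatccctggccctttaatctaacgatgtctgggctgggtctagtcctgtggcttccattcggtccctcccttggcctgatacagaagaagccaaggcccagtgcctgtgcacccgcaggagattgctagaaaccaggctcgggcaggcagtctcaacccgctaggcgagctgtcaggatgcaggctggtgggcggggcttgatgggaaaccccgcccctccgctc
Srebf1 internal start, chr11:60210472-60210721: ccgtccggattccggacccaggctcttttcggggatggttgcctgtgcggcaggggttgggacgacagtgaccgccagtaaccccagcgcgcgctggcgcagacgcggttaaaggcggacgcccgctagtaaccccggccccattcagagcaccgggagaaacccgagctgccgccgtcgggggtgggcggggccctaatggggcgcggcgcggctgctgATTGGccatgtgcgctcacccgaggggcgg
Acacb downstream start, chr5:114165268-114165517: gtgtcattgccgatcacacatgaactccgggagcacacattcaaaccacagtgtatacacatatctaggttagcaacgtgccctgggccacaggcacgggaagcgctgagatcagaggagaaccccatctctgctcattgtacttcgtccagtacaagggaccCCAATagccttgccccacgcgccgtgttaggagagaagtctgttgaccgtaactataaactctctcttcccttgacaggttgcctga
CCAAT was searched together with the E-box CACGTG and the sterol regulatory element TCACNCCAC in windows from 250 bases before to 50 after each start. A CCAAT box was in 8 of the 13 member promoters and in 37.4% of all 32851 promoters of that length. The internal Srebf1 start had its match 30 bases and the Acacb start 87 bases before the start, and the upstream Srebf1 start shown had no match to any of the 3 motifs. An E-box was found in 1 member promoter (7.2% of all promoters) and a sterol regulatory element in 1 (1.2% of all), both of them promoters of Mlxipl.

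Several properties of the libraries differed between groups and stand beside the results that follow. Albumin (Alb) was listed at 0 in 11 of the 12 livers, so a 0 can be a failed estimate, while the summed level of the 6 hepatocyte markers was at least 15490 FPKM in every liver. The adipocyte marker Adipoq was at 0.50 to 0.759 FPKM in the LU livers and at most 0.145 FPKM in any other, and Lep was above 0 in the LU livers only, at 0.139 to 0.187 FPKM. The sum of the 5 adipocyte markers was 5.84 to 6.37 FPKM in ND livers and 32 to 100.6 FPKM in the livers of the other groups. Only 1 of these 5 averaged 0.5 FPKM or more over the 12 livers, so most of the summed value lay in 1 gene. In the median of 2185 genes with a full-length and a short 3′ transcript in the table, transcripts that ended within 500 bases of the gene's 3′ end and spanned at least 90% of its length held 65.5 to 66.3% of the FPKM in ND livers, 60.8 to 66.5% in HFD livers, 44.0 to 59.3% in CLE livers and 50.8 to 55.8% in LU livers. This share did not overlap between the ND or HFD livers on one side and the CLE or LU livers on the other. It serves as a covariate in some fits below, but in comparisons across that divide its part cannot be told apart from that of the additives. The clock score, the mean log2 level of 3 genes of the morning phase minus that of 6 genes of the evening phase, ran from −1.65 to −0.02 in ND livers, from −2.44 to −1.11 in HFD livers and from −3.33 to −2.29 in CLE and LU livers. It too did not overlap between the ND livers and the CLE or LU livers. As a covariate in those comparisons, its part cannot be told apart from that of the diet and additive. Sums of Kupffer cell, stellate cell and endothelial cell markers were higher in every HFD liver than in any ND liver (71.7 to 99.1 against 53.6 to 65.7 FPKM for Kupffer cells). In whole liver, fewer cells of a type and less RNA per cell cannot be told apart. In each liver, the deviations of 7347 genes from their mean levels were also rank-correlated (Spearman) with their GC content. The coefficient was −0.409 to −0.127 in ND and HFD livers and 0.186 to 0.505 in CLE and LU livers, again with no overlap. No read counts can be recovered from the values, so the depth is unknown.

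In FPKM summed over transcripts, the members spanned from Acacb, with group means of 4.47 to 18.3, to Scd1, with group means of 2807 to 6012. Mlxipl was the next highest at 116 to 198, then Me1 at 57.4 to 78.9. The remaining members, Srebf1, Fasn, Acaca, Acly, Elovl6 and Thrsp, had group means between 7.97 and 45.8 FPKM. Among the 4 groups, 3 of the 10 members differed by limma's moderated F test (Srebf1, adjusted p = 0.0196; Acacb, adjusted p = 0.00535; Elovl6, adjusted p = 0.0208), where 23.6% of all genes tested did.

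**Figure D1:**
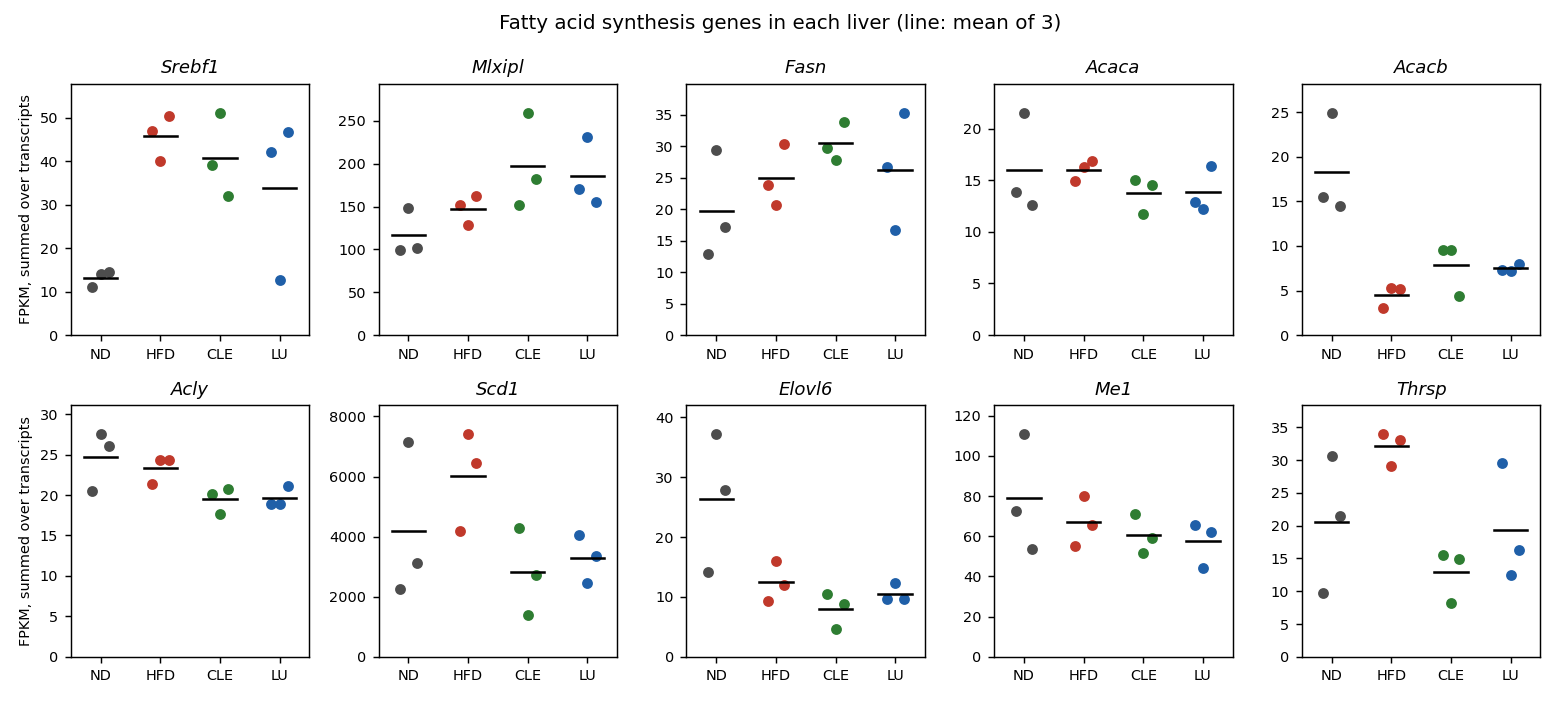
FPKM summed over transcripts (vertical axes, linear, from 0) of the 10 fatty acid synthesis genes in each of the 12 livers, with a point for each liver and a line at the mean of the 3 livers of ND, HFD, CLE and LU. Every HFD liver was above every ND liver for Srebf1 (at least 40.1 against at most 14.5 FPKM) and below every ND liver for Acacb (at most 5.25 against at least 14.5 FPKM).

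The comparison of HFD with ND livers asked what the fat-rich diet did to the pathway. Srebf1 rose 3.47-fold in the ratio of group means and Acacb fell, its mean 4.10-fold higher in ND than in HFD livers, and the other 8 members did not pass the test. Thus 1 member was called higher, where 9.73% of all genes tested were, and 1 lower, where 2.02% were. The groups did not overlap for these 2 members alone, where 36.1% of all genes had groups that did not overlap. The median difference of the members was 0.20 on the log2(FPKM + 1) scale, beside 0.11 for all genes tested. Of the genes called, 82.8% were higher in HFD livers, and 55.1% under median-of-ratios scaling, which moved the median of all genes to −0.01.

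Srebf1, which encodes the precursors of SREBP-1a and SREBP-1c, stood at 11, 14.1 and 14.5 FPKM in the ND livers and at 46.9, 40.1 and 50.4 FPKM in the HFD livers (13.2 ± 1.93 and 45.8 ± 5.21, SD, n = 3). The HFD livers were all high and close together. The difference was 1.72 on the log2(FPKM + 1) scale (SE 0.36, 95% interval 0.94 to 2.51, adjusted p = 0.00948). It kept its call when any one liver was left out (adjusted p 0.0234 to 0.0453), and lost it with the clock score as a covariate (1.57, adjusted p = 0.10) and in the single transcript with the highest mean (1.2, adjusted p = 0.173).

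By start site, the Srebf1 transcripts with the internal start, the SREBP-1c kind, summed to 4.96, 6.07 and 7.45 FPKM in ND livers and to 17.0, 21.4 and 24.7 FPKM in HFD livers. Those with an upstream start summed to 3.16 to 3.62 FPKM in ND livers and to 6.57 to 7.07 FPKM in HFD livers. Neither kind overlapped between the diets. The rest of the gene's value lay in 9 transcripts that begin at neither site, at 2.40 to 4.78 FPKM in ND and 12.0 to 22.8 FPKM in HFD livers. Acacb transcripts with the upstream start were at 3.46, 4.15 and 4.56 FPKM in ND livers and at 0.318, 1.06 and 0.421 FPKM in HFD livers, and the 1 transcript with the downstream start was at 1.12, 1.33 and 0.163 FPKM in ND livers and at most 0.000132 FPKM in HFD livers. Most of the Acacb value lay in 16 transcripts that begin at neither of its sites, at 9.76 to 19.5 FPKM in ND and 2.69 to 4.73 FPKM in HFD livers. The shares among transcripts are estimates of the assembly program, and no test was set up by start site. The full-length sum tested below is, for Srebf1, that of the upstream-start transcripts.

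Mlxipl, whose product ChREBP senses glucose metabolites, did not pass. Its levels were 99.2, 148 and 102 FPKM in ND livers and 151, 128 and 162 FPKM in HFD livers, which overlapped (0.36, SE 0.22, adjusted p = 0.319). Both transcription factors had higher means in HFD than in ND livers, but only the Srebf1 difference passed.

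The 2 acetyl-CoA carboxylases differed from each other in this comparison. Acacb, the mitochondrial form, stood at 15.5, 25.0 and 14.5 FPKM in ND livers and at 3.0, 5.25 and 5.15 FPKM in HFD livers. Its difference of −1.81 (SE 0.27, 95% interval −2.39 to −1.23, adjusted p = 0.00121) passed in all 12 of the alternative settings fixed at the outset (adjusted p 0.000512 to 0.024) and with each liver left out (0.00309 to 0.00728). Acaca, the cytosolic form that feeds Fasn, was at 13.9, 21.5 and 12.6 FPKM in ND livers and 15, 16.3 and 16.8 FPKM in HFD livers, a difference of 0.04 (95% interval −0.35 to 0.42, adjusted p = 0.921).

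Within each liver, the ratio of Acacb to Acaca was 1.11, 1.16 and 1.15 in the ND group and 0.201, 0.322 and 0.306 in the HFD group. In CLE livers it was 0.637, 0.815 and 0.305, and in LU livers 0.568, 0.588 and 0.486. The ratio thus had a narrow spread in ND livers, where the FPKM of both genes varied more, and every liver on the fat-rich diet, with or without an additive, lay below every ND liver. It is given as a description with no test, since both genes' differences are tested above.

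**Figure D2:**
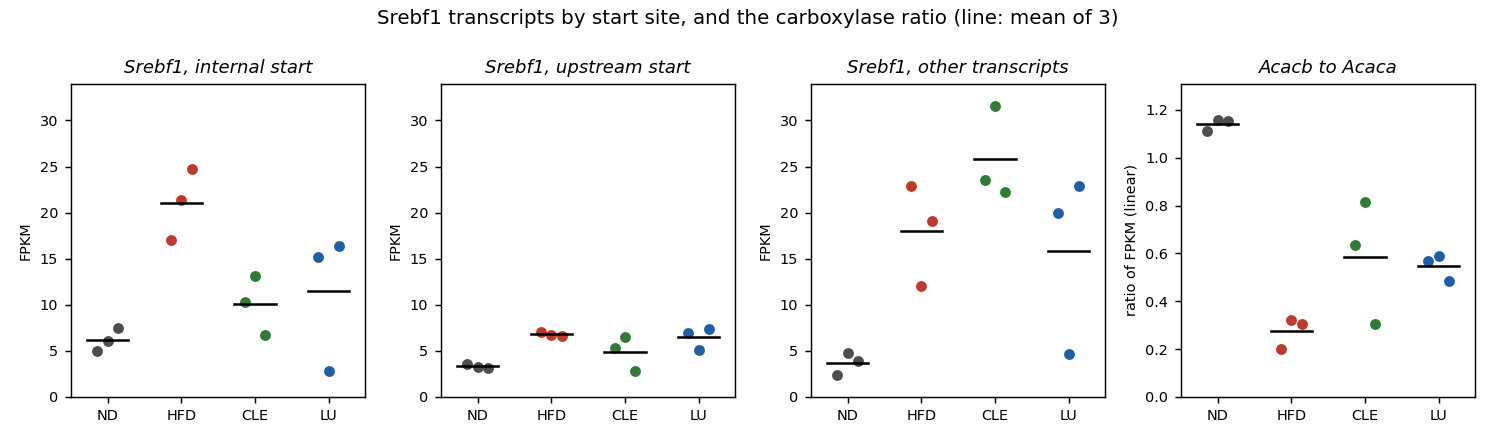
FPKM of Srebf1 transcripts grouped by start site (internal, upstream and other; 3 panels on one linear scale) and the linear ratio of Acacb to Acaca, for each of the 12 livers, with a line at each group mean of 3. Internal-start transcripts were at 17.0 to 24.7 FPKM in HFD livers against 4.96 to 7.45 in ND livers, and the ratio was at least 1.11 in the 3 ND livers and at most 0.815 in all others.

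Of the enzymes at the ends of the pathway, Elovl6 came nearest to the threshold. This elongase was at 14.2, 37.2 and 27.9 FPKM in ND livers and at 9.39, 16.0 and 12.0 FPKM in HFD livers. ND 2 lay within the range of the HFD livers, and the difference of −0.96 (SE 0.32, adjusted p = 0.0705) did not pass; without ND 2 it did (−1.33, adjusted p = 0.0187), as it did under median-of-ratios scaling (−1.11, adjusted p = 0.0415). Scd1, the stearoyl-CoA desaturase, ran from 2253 to 7162 FPKM in ND livers and from 4193 to 7404 FPKM in HFD livers (0.66, 95% interval −0.29 to 1.62, adjusted p = 0.365). The quotient of Scd1 to Elovl6, the desaturase over the elongase, was 112 to 193 in ND livers and 447 to 538 in HFD livers, with no overlap and no test.

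Fasn, the synthase itself, was at 12.9, 29.3 and 17.1 FPKM in ND livers and 23.8, 20.6 and 30.4 FPKM in HFD livers (0.38, adjusted p = 0.423). Acly (20.5 to 27.5 against 21.4 to 24.4 FPKM, −0.07, adjusted p = 0.771) and Me1 (53.4 to 111 against 55.2 to 80.0 FPKM, −0.19, adjusted p = 0.669) overlapped in full. Thrsp, a protein that binds the carboxylase regulator encoded by Mid1ip1, ran from 9.72 to 30.6 FPKM in ND livers and from 29.2 to 33.9 FPKM in HFD livers, and its difference of 0.75 (95% interval −0.05 to 1.55) did not pass (adjusted p = 0.216). Of the enzymes from citrate to palmitate, Acacb was the one that passed.

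The spread among the ND livers bears on these intervals. ND 3 was the highest ND liver for 9 of the 10 members, and ND 2 the lowest for 7. The coefficient of variation in the ND group was 62.8% for Scd1, 50.8% for Thrsp, 43.6% for Elovl6 and 43.2% for Fasn, against 14.6% for Srebf1 and 15.1% for Acly. In HFD livers it was at most 28.4%, for Acacb.

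**Figure D3:**
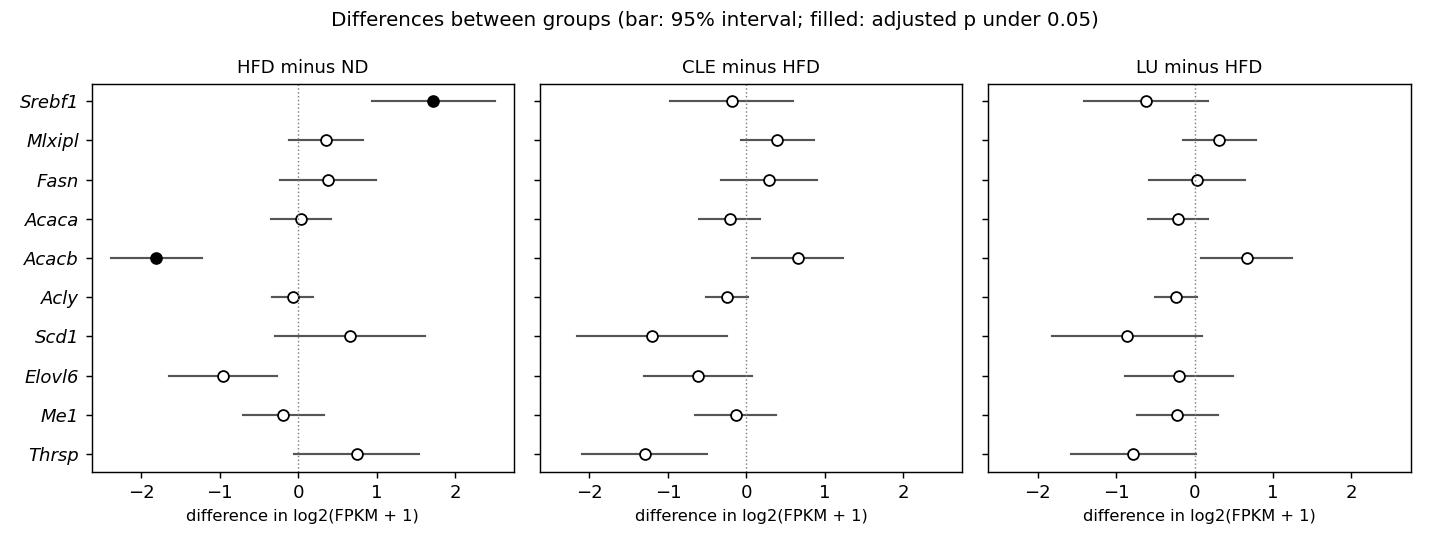
Differences in log2(FPKM + 1) for the 10 genes (horizontal axis) with 95% intervals, for HFD minus ND, CLE minus HFD and LU minus HFD; filled circles have an adjusted p under 0.05. The filled circles are Srebf1 (1.72) and Acacb (−1.81) in HFD minus ND, and the intervals of Acacb, Scd1 and Thrsp in CLE minus HFD and of Acacb in LU minus HFD do not include 0 although none passed the adjustment.

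The comparison of CLE with HFD livers asked what the leaf extract changed on the fat-rich diet. None of the 10 members passed limma's test (3 had an unadjusted p under 0.05), where 2.52% of all genes were called higher and 3.16% lower. The members' median was −0.20, beside 0.02 for all genes tested. Groups did not overlap for 2 members, Thrsp and Acly, both lower in CLE livers, where 31.2% of all genes had groups that did not overlap.

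Thrsp had the largest difference of the 10. It was at 15.6, 8.22 and 14.9 FPKM in CLE livers, all below the 29.2 to 33.9 FPKM of the HFD livers, a difference of −1.30 (SE 0.37, 95% interval −2.10 to −0.50, adjusted p = 0.0553). It passed in 3 of the 12 alternative settings, with the 2 groups fitted alone (adjusted p = 0.0357), with genes of at least 5 FPKM (0.0471) and with the correction for length (0.0468), and without CLE 2 (−1.45, adjusted p = 0.0358). Scd1 was at 4277, 1405 and 2738 FPKM in CLE livers, where CLE 2 lay just above the lowest HFD liver (−1.20, 95% interval −2.15 to −0.25, adjusted p = 0.10). Without CLE 2 it passed (adjusted p = 0.0347), as it did when reference transcripts alone were summed, which hold 3.37% of the gene's FPKM (−3.145, adjusted p = 0.0417). With the share of full-length transcripts as a covariate, Thrsp differed by −0.78 (adjusted p = 0.961) and Scd1 by 0.08 (adjusted p = 0.998).

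Acacb was at 9.58, 9.52 and 4.42 FPKM in CLE livers. CLE 2 and CLE 4 were above every HFD liver and CLE 11 within their range, and the difference of 0.66 (95% interval 0.08 to 1.24) did not pass (adjusted p = 0.128), though it did without CLE 11 (0.98, adjusted p = 0.0452). All 3 CLE livers were below every ND liver. Srebf1, at 39.2, 51.1 and 31.9 FPKM, overlapped with the HFD livers (−0.19, 95% interval −0.97 to 0.60, adjusted p = 0.758), and its internal-start transcripts were at 6.76 to 13.1 FPKM, below the 17.0 to 24.7 FPKM of HFD livers. Its upstream-start transcripts were lower too, at 2.85 to 6.485 FPKM in CLE livers beside 6.57 to 7.07 FPKM in HFD livers. Its transcripts that begin at neither site were at 22.2 to 31.5 FPKM in CLE livers, beside 12.0 to 22.8 FPKM in HFD livers. In LU livers the internal-start transcripts were at 2.85 to 16.4 FPKM, also below the HFD livers. The upstream-start ones in LU livers, at 5.13 to 7.40 FPKM, overlapped with HFD livers, and those of neither site were at 4.60 to 22.9 FPKM.

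For Mlxipl the CLE livers had 152, 259.6 and 182 FPKM (0.39, adjusted p = 0.240), and for Fasn 29.7, 27.8 and 33.8 FPKM (0.29, adjusted p = 0.513). Acly was at 20.1, 17.7 and 20.8 FPKM (−0.25, 95% interval −0.51 to 0.02, adjusted p = 0.194), just under the HFD livers. Acaca, Elovl6 and Me1 overlapped with HFD, with differences of −0.21, −0.61 and −0.14 (adjusted p = 0.438, 0.211 and 0.726). CLE 4 was the lowest CLE liver for 7 members and the highest for Srebf1 and Mlxipl, and it had the lowest share of full-length transcripts of all livers, 44.0%.

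The comparison of LU with HFD livers asked the same of luteolin. None of the members passed limma's test (1 had an unadjusted p under 0.05), where 0.283% of all genes were called higher and 0.717% lower. The median difference was −0.215, beside −0.02 for all genes. Groups did not overlap for Acacb, which was higher in LU livers, and for Acly and Scd1, which were lower, where 30.1% of all genes had groups that did not overlap.

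Acacb was at 7.33, 7.18 and 7.95 FPKM in LU livers, a tight group between the HFD and the ND livers (0.66, SE 0.27, 95% interval 0.08 to 1.24, adjusted p = 0.198). Scd1 was at 4038, 2451 and 3354 FPKM (−0.86, 95% interval −1.82 to 0.09, adjusted p = 0.282) and Acly at 18.8, 18.9 and 21.2 FPKM (−0.24, adjusted p = 0.287). Thrsp ranged from 12.4 to 29.5 FPKM, with LU 2 inside the HFD range (−0.78, adjusted p = 0.252). The adjusted p stayed above the threshold for all 10 members in the 12 alternative settings and with each liver left out.

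Srebf1 was the member for which 1 LU liver stood apart. It was at 42.0 and 46.7 FPKM in LU 2 and LU 8 and at 12.6 FPKM in LU 3, a level within the ND range, and the difference from HFD was −0.62 (95% interval −1.405 to 0.165, adjusted p = 0.344). Without LU 3 it was −0.04 (adjusted p = 0.936). LU 3 was also the lowest LU liver for Fasn, Acaca, Acacb, Scd1, Me1 and Thrsp, and the highest for Mlxipl, at 231 FPKM. The LU means of Mlxipl, Fasn, Acaca, Elovl6 and Me1 differed from HFD by 0.32, 0.03, −0.21, −0.20 and −0.22, none of which passed (adjusted p 0.416 to 0.969).

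Extract and luteolin were also set against each other and against ND. Between CLE and LU livers none of the 10 members passed by limma (0 at an unadjusted p under 0.05), where 0.00833% of all genes were called. The intervals were wide enough to leave sizeable differences undetected, from −1.29 to 0.62 for Scd1 and from −1.32 to 0.28 for Thrsp, and narrow for Acly (−0.27 to 0.25). For Acacb the difference was −0.01 (−0.58 to 0.57). In none of the 10 did the CLE and LU livers separate.

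Against ND livers, 4 members were called in CLE livers, where 26.7% of all genes were called. Srebf1 (1.54, adjusted p = 0.0118) and Mlxipl (0.75, adjusted p = 0.025) rose, and Acacb (−1.15, adjusted p = 0.0113) and Elovl6 (−1.57, adjusted p = 0.00662) fell. The call of Mlxipl was lost without ND 2, ND 4 or CLE 4 (adjusted p = 0.0822, 0.0878 and 0.0969) and under median-of-ratios scaling (0.57, adjusted p = 0.0647), and none of the 4 passed with the clock score (adjusted p 0.265 to 0.999) or the share of full-length transcripts (0.301 to 0.974) as a covariate. Neither covariate overlapped between the ND livers and the CLE or LU livers, so a lost call does not tell the covariate from the group. With the clock score the differences of Srebf1, Acacb and Elovl6 were 1.26, −1.65 and −1.50 and that of Mlxipl was 0.0016. With the full-length share they were 1.63, −0.85 and −0.65, and −0.028 for Mlxipl. In the single transcript with the highest mean, Srebf1 differed by 0.43 (adjusted p = 0.527) and Acacb by −0.34 (adjusted p = 0.408).

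In LU livers 2 members were called against ND, Acacb (−1.15, adjusted p = 0.0183) and Elovl6 (−1.16, adjusted p = 0.0316), both lower, where 14.5% of all genes were called. Neither passed with the clock score as a covariate (Acacb −1.63, adjusted p = 0.351; Elovl6 −1.09, adjusted p = 0.693) or with the share of full-length transcripts (−0.88, adjusted p = 0.372; −0.34, adjusted p = 0.781). In the Acacb transcript with the highest mean the difference was −0.16 (adjusted p = 0.729), and without a filter on low values Elovl6 had an adjusted p of 0.0728. The call of Acacb was lost without ND 3 or LU 3 (adjusted p = 0.0562 and 0.0517), and that of Elovl6 without any one of ND 3, ND 4, LU 2, LU 3 and LU 8 (adjusted p 0.0579 to 0.0994). Srebf1 did not pass (1.10, adjusted p = 0.0582), and passed without LU 3 (1.68, adjusted p = 0.000969). These comparisons share their ND or HFD livers with those above and are not independent of them. The members' median was −0.32 in CLE against ND and −0.185 in LU against ND, beside 0.16 and 0.12 for all genes.

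For some members, part of the value in CLE and LU livers lay in short transcripts. Full-length Acly transcripts held 58.6 to 85.9% of the gene's FPKM in ND and HFD livers and 22.8 to 46.7% in CLE and LU livers. For Acacb the share was 24.4 to 50.5% against 10.8 to 21.1%, for Acaca 15.7 to 45.0% against 8.92 to 15.5%, and for Fasn 16.7 to 43.2% against 6.92 to 18.7%. The share was 100% in every liver for Scd1, Elovl6 and Thrsp, and could not have been otherwise. Scd1 had 2 transcripts and Elovl6 and Thrsp 1 each, all spanning the gene, so the share says nothing of losses in these genes. For Srebf1 and Me1 the share overlapped between the ND or HFD and the CLE or LU livers. For Mlxipl it was 59.5 to 66.8% in ND and HFD livers and 62.7 to 70.5% in CLE and LU livers. In Fasn, 41.5% of the summed value belonged to Fasn-202 and 15.8% to Fasn-203, both short transcripts with a retained intron.

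When only full-length transcripts were summed, Acly passed in CLE against HFD (−1.12, adjusted p = 0.0436), and Acacb differed from HFD by −0.14 in CLE and by −0.36 in LU livers, values of the other sign than those of the full sum (adjusted p = 0.782 and 0.502). When reference transcripts alone were summed, which drops the newly assembled ones, Acacb was higher than in HFD livers by 0.96 in CLE livers and passed (adjusted p = 0.0395), and by 0.47 in LU livers (adjusted p = 0.229). In the sum of full-length transcripts, Fasn in LU against ND turned from 0.41 (adjusted p = 0.316) to −1.02 (adjusted p = 0.0277). The 2 calls of HFD against ND kept their sign and their call in that full-length sum (Srebf1 0.84, adjusted p = 0.0283; Acacb −1.55, adjusted p = 0.0108). The comparisons with CLE and LU livers for these long genes thus depended on which transcripts were summed.

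**Figure D4:**
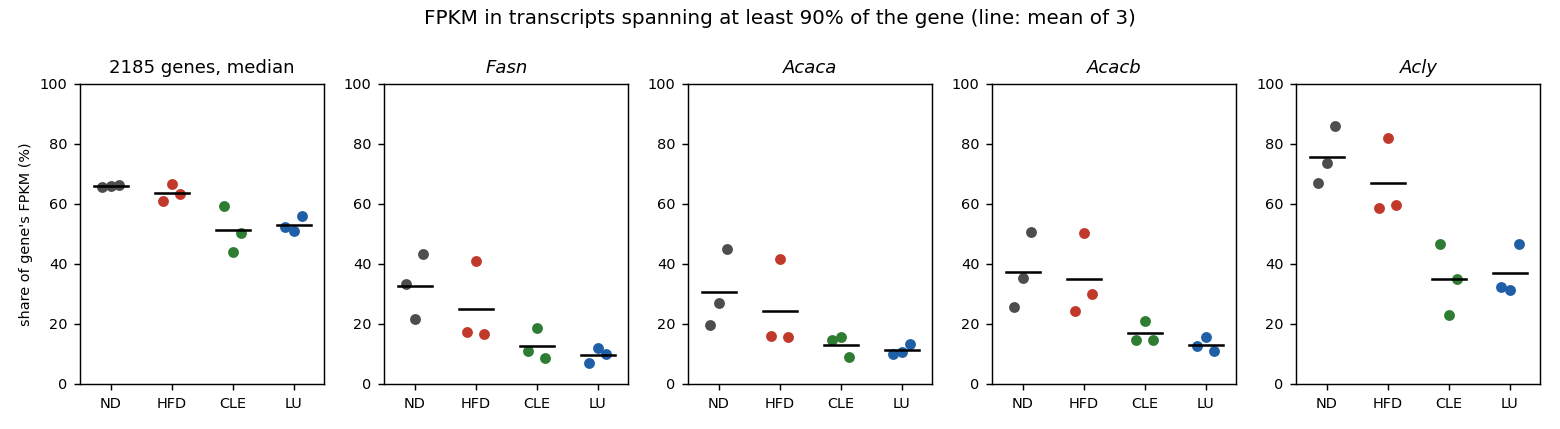
Share of FPKM (%, 0 to 100) in transcripts spanning at least 90% of the gene, as the median over 2185 genes and for Fasn, Acaca, Acacb and Acly, in each of the 12 livers, with a line at each group mean of 3. For the 2185 genes the CLE and LU livers (44.0 to 59.3%) lie below the ND and HFD livers (60.8 to 66.5%), and for Acly no CLE or LU liver exceeds 46.7%.

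Genes around the members were followed too. Among those that supply carbon and NADPH, Mpc1, a subunit of the mitochondrial pyruvate carrier, was at 239, 203 and 225 FPKM in ND livers and at 354, 297 and 318 FPKM in HFD livers. Every HFD liver was above every ND liver, and Mpc1 rose by 0.53 on the log2(FPKM + 1) scale (adjusted p = 0.0142). The call was lost without ND 3 or HFD 12 (adjusted p = 0.0517 and 0.0608), under median-of-ratios scaling (0.101), after the correction for GC content (0.086) and with the clock score as a covariate (0.101).

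Of 17 regulators of SREBP-1c, ChREBP and acetyl-CoA carboxylase, 1 was called higher and 0 lower for the fat-rich diet, for the extract and for luteolin alike, where 9.73%, 2.52% and 0.283% of all genes were called higher. Against ND, 9 were called in CLE livers (5 higher, 4 lower) and 4 in LU livers (2 higher, 2 lower), where 26.7% and 14.5% of all genes were. Mid1ip1, which encodes an activator of the carboxylases that pairs with the Thrsp product, rose from 3.05, 3.61 and 3.64 FPKM in ND to 9.51, 7.71 and 9.15 FPKM in HFD livers (1.14, SE 0.15, adjusted p = 0.000424), and kept its call in all 12 settings and with each liver left out. Mlycd, the malonyl-CoA decarboxylase that removes the product of the carboxylases, did not pass between HFD and ND (54.7 to 64.4 against 57.2 to 65.0 FPKM). It was at 80.3, 94.0 and 87.8 FPKM in CLE livers (0.56, adjusted p = 0.0188) and 83.7, 81.3 and 85.8 FPKM in LU livers (0.50, adjusted p = 0.0405), higher in both than in every HFD liver.

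The Mlycd calls were lost when full-length transcripts alone were summed (0.18, adjusted p = 0.545 for CLE; 0.26, adjusted p = 0.432 for LU), without HFD 12, HFD 15 or CLE 4 for CLE (adjusted p 0.0583 to 0.101), and without any one of the 6 livers for LU (0.0653 to 0.210). Neither passed after the correction for GC content (0.26 and 0.32, adjusted p = 0.097 and 0.116). Mid1ip1 passed in LU against HFD without LU 8 only (−0.60, adjusted p = 0.0481). The list's medians were −0.05 for the fat-rich diet, 0.11 for the extract and −0.06 for luteolin. The liver X receptor, AMP-activated kinase, SCAP and INSIG genes of this list did not pass in any of the 3.

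Of 10 other lipogenic targets, 8 were tested, and 4 were called in HFD against ND, 1 higher and 3 lower, where 9.73% of all genes were called higher and 2.02% lower. Scd2, a desaturase of low level in liver, rose from 0.745, 1.21 and 1.12 to 1.88, 2.08 and 1.96 FPKM (0.56, adjusted p = 0.0368). Fads1, a desaturase of polyunsaturated fatty acids, fell from 148, 263 and 158 to 65.2, 99.7 and 102 FPKM (−1.06, adjusted p = 0.028), Acsl5, an acyl-CoA synthetase, from 151, 168 and 149 to 85.9, 94.4 and 94.9 FPKM (−0.76, adjusted p = 0.0045), and Txnip, a thioredoxin-binding protein induced by glucose through ChREBP, from 92.4, 113 and 126 to 72.5, 40.7 and 56.7 FPKM (−0.98, adjusted p = 0.0211). The list's median was −0.68, and 2 further genes of the list, Pnpla3 and Pnpla5, fell under the filter.

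Acsl5 kept its call with each liver left out (adjusted p 0.0144 to 0.0246). Fads1 lost it without ND 3, HFD 12 or HFD 18 (0.0515 to 0.114), Txnip without ND 3, ND 4, HFD 15 or HFD 18 (0.0543 to 0.0823), and Scd2 without any one liver but ND 3 (0.0737 to 0.153). Of the settings fixed at the outset, Scd2 lost its call in 7 of 11 (adjusted p 0.0604 to 0.117), Fads1 in 4 of 12, Txnip in 3 of 12 and Acsl5 in 1 of 12, with the clock score as a covariate (0.0547). None of the 8 was called in CLE against HFD or LU against HFD by limma (1 had an unadjusted p under 0.05 in each), and the medians were −0.07 and −0.03.

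**Figure D5:**
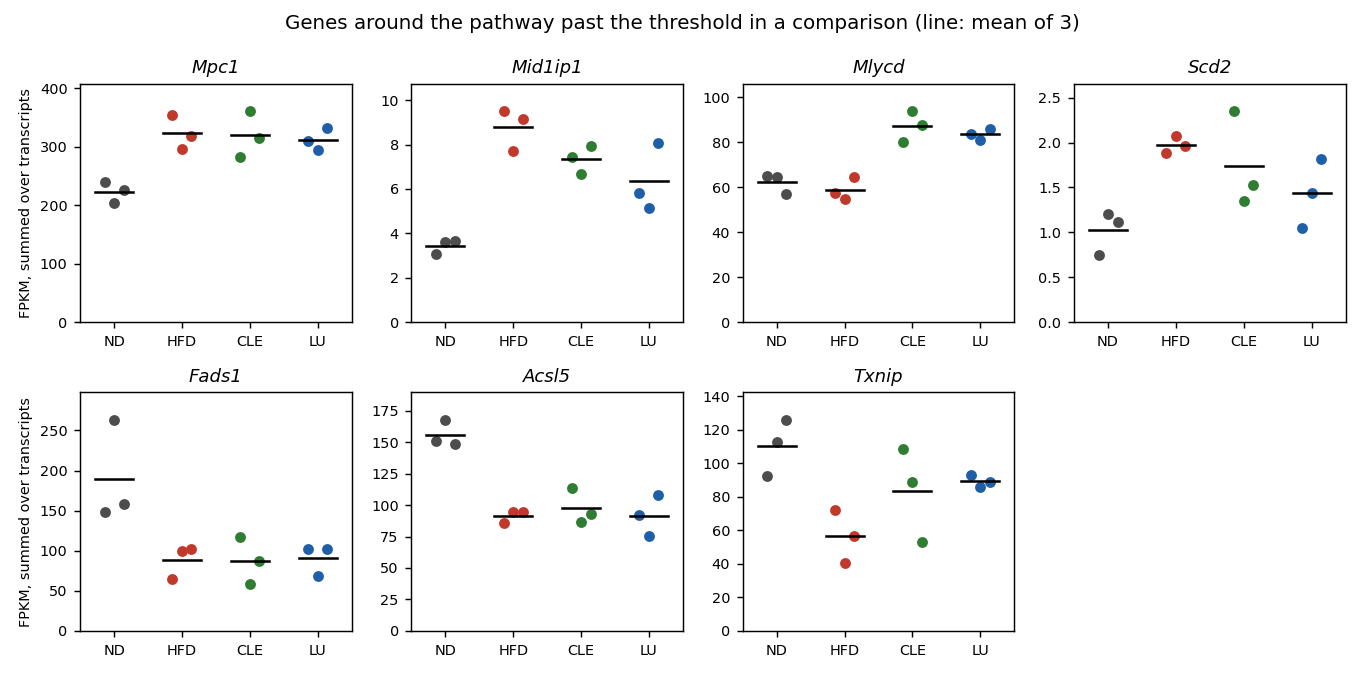
FPKM summed over transcripts (vertical axes, linear, from 0) of Mpc1, Mid1ip1, Mlycd, Scd2, Fads1, Acsl5 and Txnip, pathway genes that passed for the fat-rich diet or for either additive, in each of the 12 livers, with a line at each group mean of 3. Mlycd is higher in all CLE and LU livers (80.3 to 94.0 FPKM) than in all ND and HFD livers (54.7 to 65.0 FPKM).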

How the data were processed

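RNA of 12 livers was sequenced in paired reads of 100 bases. Per the labels, the submitters' processing notes name CASAVA 1.8.2, Bowtie2 2.2.3, TopHat2 2.0.12 and Cufflinks 2.2.1; the genome build was not given in the sources used here. The authors deposited 1 table of FPKM per transcript, from an assembly of 30 samples per the file headers. Of its 152210 transcripts, 142683 were assigned to genes by GENCODE M21 and their FPKM summed to 22947 genes; 87.6% of known transcripts had the same ends there. Left out were 8149 transcripts without a reference gene and 836 antisense or intronic ones. Those without a reference summed to 1483577 (ND 4) to 6084423 (CLE 4) FPKM per liver, beside 532937 to 634459 FPKM in the genes. Whether overlapping genes were split by strand is not stated. Values were log2(FPKM + 1), which understates changes of low genes.

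The 12001 genes averaging 0.5 FPKM or more were fitted with limma 3.58.1 in R 4.3.3, with a variance trend, 1 coefficient per group and all 12 livers, and p-values were two-sided and adjusted by Benjamini-Hochberg over all genes tested, with a threshold of 0.05. The script was tested on simulated data. Groups came from the sample labels; the study's methods call the 3 livers of each group representative. All 10 members are named, with other pathway genes where they passed for the fat-rich diet or either additive. One item of the list of carbon and NADPH supply is not reported here, nor are that list's counts. The members and lists were chosen with earlier results of these data known. Alternatives changed the pseudocount (0.1), filter, scaling, groups fitted, variance model, gene value, GC and length correction and clock covariate, and left out each liver; 3 on full-length and 3′ transcripts were chosen after seeing the data. Promoter sequences are from RefSeq. The depth per sample is unknown.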

Additional observations from a re-analysis of the deposited data

How the results depend on the processing

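Of the members' log2 differences recomputed under the alternatives, 1108 kept direction and side of the threshold, 46 newly passed, 36 no longer passed, 88 moved without a call and 2 reversed. Members called in HFD against ND were 1 in the transcript with the highest mean and with the clock covariate (2 to 3 with a liver left out). In CLE against HFD they were 1 with genes of at least 5 FPKM, the 2 groups alone, the length correction or full-length transcripts, and 3 with reference transcripts only (0 to 2 with a liver left out); in LU against HFD 0 to 0 with a liver left out. In CLE against ND they were 8 with reference transcripts only and 0 with either covariate (3 to 5 with a liver left out). In LU against ND they were 1 without a filter, 4 with reference or 3′-anchored transcripts, 7 with full-length transcripts and 0 with either covariate (1 to 2 with a liver left out). Among the 4 groups they were 1 without a filter and with either covariate, 6 with reference transcripts and 7 with full-length ones (1 to 4 with a liver left out). Reversed were Mlxipl in CLE against ND with the full-length share as covariate (−0.028, adjusted p = 0.974) and Fasn in LU against ND with full-length transcripts (−1.02, adjusted p = 0.0277). The cause was not tested.

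Over the settings fixed at the outset, liver omissions aside, calls over all genes ranged from 418 to 1868 (main 1411) in HFD against ND, 38 to 1030 (682) in CLE against HFD, 19 to 284 (120) in LU against HFD, 0 to 3 (1) in CLE against LU, 10 to 3285 (3208) in CLE against ND, 15 to 2091 (1742) in LU against ND and 248 to 2930 (2836) among the 4 groups. Without CLE 2 they were 2268 in CLE against HFD, 3793 in CLE against ND and 3844 among the 4 groups; with the full-length share as covariate 0 in CLE against HFD and 0 in LU against HFD; and with 3′-anchored transcripts 2169 in LU against ND. Under median-of-ratios scaling the share of calls that were higher went from 77.1% to 42.3% in CLE against ND and from 74.6% to 40.6% in LU against ND.

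Some label numbers are shared by ND, CLE and LU livers. The deviations of same-numbered livers from their group means had correlations of −0.25, 0.0865, 0.194, −0.0977 and −0.181. With means of 3 livers and no differently numbered pairs beside them, these values cannot decide whether same-numbered livers share more than a number. With the number as a replicate block, 4 members were called in CLE against ND and 2 in LU against ND, and 1101 and 769 of all genes. The block fit rests on the shared numbers alone. These are ND 2 with CLE 2 and ND 4 with CLE 4, and ND 2 with LU 2 and ND 3 with LU 3. ND 3 and CLE 11 in the first fit, and ND 4 and LU 8 in the other, add nothing to the difference. Whether the changes below came from the pairing or from the smaller set of livers was not tested. Under the block Fasn passed (0.91, adjusted p = 0.0216) and Acacb did not (−0.60, adjusted p = 0.167) in CLE against ND, and Mlxipl passed (0.71, adjusted p = 0.0367) and Elovl6 did not (−1.02, adjusted p = 0.061) in LU against ND. HFD shares no number, and CLE and LU share too few for a paired fit.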
